A study of Rattus norvegicus and Mus musculus with 12 samples.

Results

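The genes described here are the G1 cyclins Ccnd1, Ccnd2, Ccnd3 and Ccne1 and the CDK inhibitors Cdkn1a, Cdkn1b, Cdkn1c, Cdkn2a, Cdkn2b and Cdkn2c. They were taken by gene symbol and not by a cutoff on measured values, but with earlier results of these data known. All 10 had a row in the rat table of 19687 genes and in the mouse table of 28603 genes, and all 10 passed the filter on low counts in both species. RNA-seq had been run on primary articular chondrocytes, the cells that make and keep cartilage, which came from newborn animals and were at passage 1. The RC group held chondrocytes of SD rats without stimulation, and the RM group held chondrocytes of SD rats given the inflammatory cytokine IL-1β at 20 ng/ml for 24 h. The MC and MM groups were the same pair in mice, without IL-1β and with 20 ng/ml IL-1β for 24 h. The mouse strain labels run from C57BL/6 to C57BL/8 in MC and from C57BL/7 to C57BL/9 in MM, whereas the study's methods name C57BL/6 for all mice. The labels name no genetic change in any group. Each group had 3 libraries, numbered here as in the labels (RC1, RC2, RC3).

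A cell in G1 phase commits to copying its DNA when D-type cyclins with CDK4 or CDK6, and then cyclin E with CDK2, phosphorylate the retinoblastoma protein and so free the E2F factors. The INK4 inhibitors (Cdkn2a, Cdkn2b, Cdkn2c) bind CDK4 and CDK6. The CIP/KIP inhibitors (Cdkn1a, Cdkn1b, Cdkn1c) bind complexes of cyclin and CDK, and strongly inhibit those with CDK2. In growing cartilage, Cdkn1c is known as a gene of chondrocytes that leave the cell cycle, and Cdkn1a is a classical target of p53. The study compared how chondrocytes of the rat and the mouse proliferate under IL-1β, and these genes are the gate of that process.

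Depth was similar over the libraries, with 20169272 to 25903459 counted reads in rat and 16841580 to 20048322 in mouse. The chondrocyte markers Col2a1, Acan and Sox9 had a mean FPKM of 2838, 529 and 28.1 in RC and of 1347, 78.3 and 42.8 in MC. Cells labelled chondrocytes should have these markers. With IL-1β they were lower, at 943, 153 and 18.1 in RM and at 93.7, 4.22 and 17.0 in MM. Fibroblast markers had a high summed FPKM in every group too, as given below. The library RC1 stood apart from the other control libraries of the rat on the second principal component of the rat libraries, which held 10.2% of their variance. Without it 8 of the 10 genes described here were called in rat, where 6 were called with it. Where a call or a sign of these 10 turned without RC1, the value is given beside the result. Of the genes in the lists around them, 50 were called in rat without RC1 and 45 with it. Their values without RC1 are not given here. Rat libraries varied more than mouse libraries, with a biological coefficient of variation of 0.106 against 0.0318, so the same change carries a larger error in rat. In mouse the scaling between libraries matters, because the TMM factors were 1.099 to 1.104 in MC and 0.905 to 0.9105 in MM. Over all mouse genes tested, log2 fold changes had a median of -0.02 after TMM scaling and of -0.3 with library size alone. This shift lowers each mouse log2 fold change given below by about the same amount. It does not touch the FPKM values, which carry no TMM factor. With library size alone 25% of all mouse genes were called higher and 54.7% lower, against 37.4% and 37.7% after TMM. The direction and the call of each of the 10 genes in mouse were the same under both scalings.

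Levels are given as FPKM, the count divided by gene length and by the library total. Fold changes and adjusted P values come from edgeR's quasi-likelihood test on the counts after TMM scaling, with Benjamini-Hochberg adjustment across the 13303 rat or the 14774 mouse genes tested. A gene was called when the adjusted P was under 0.05. The study's methods state 3 independent samples a group, but the labels name no animals or cultures, so the P values measure the spread between these libraries, which may be technical.

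The Cdkn2a count needs a sequence to be read correctly. Cdkn2a encodes both the INK4 protein and ARF, an unrelated protein that protects p53, from transcripts that start at different first exons and share the second. The join of first and second exon is shown for both mouse transcripts (GRCm38, chromosome 4, minus strand), with the end of the first exon in lower case and the start of the shared second exon in capitals. The second exon, from 89276645 to 89276985, is the same in both. The first exon of Cdkn2a-201, which encodes the INK4 protein, runs from 89281986 to 89282192, and that of Cdkn2a-202, which encodes ARF, from 89294334 to 89294653.
Cdkn2a-201: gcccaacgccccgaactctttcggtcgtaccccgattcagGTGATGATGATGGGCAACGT
Cdkn2a-202: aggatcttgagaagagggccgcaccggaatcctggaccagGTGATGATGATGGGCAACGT
The transcripts share 575 exon bases, 67.5% of the 852 bases of Cdkn2a-201 and 64.2% of the 895 bases of Cdkn2a-202. The deposited count is 1 value per gene, so every mouse Cdkn2a value below pools the INK4 and ARF transcripts. No rat transcripts of the files' build were used here, so which of them the rat count covers is not known, and the length behind the rat FPKM is 915 bases against 1172 in mouse.

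IL-1β was followed by changes in all 10 genes in mouse and in 6 of 10 in rat, and the pattern differed between the species. In rat, Ccne1 and Cdkn2c rose and Ccnd2, Cdkn1c, Cdkn2a and Cdkn2b fell. In mouse, Ccnd3, Cdkn1a and Cdkn2b rose and Ccnd1, Ccnd2, Ccne1, Cdkn1b, Cdkn1c, Cdkn2a and Cdkn2c fell. Against this, 35.1% of all rat genes and 75.0% of all mouse genes were called. Ccnd2, Cdkn1c and Cdkn2a fell in both species, Ccne1, Cdkn2b and Cdkn2c were called in opposite directions, and Ccnd1, Ccnd3, Cdkn1a and Cdkn1b were called in mouse alone. The median log2 fold change of the 10 genes was -0.14 in rat, where that of all genes was 0.01, and -0.47 in mouse, where that of all genes was -0.02. The FPKM of the groups did not overlap for 6 genes in rat and for 10 in mouse, beside 47.8% and 80.3% of all genes tested. The study's criteria for DEGs ask for an FPKM of 1 or more in some library, a fold change above 0.85 and a P under 0.05. Here the 0.85 was read as the size of a log2 fold change, and the P was that of edgeR before adjustment. By the criteria read in this way, 2 of the 10 genes passed in rat, Cdkn1c and Cdkn2b, both lower. The share of all rat genes that passed was 8.56%, with 4.65% higher and 3.91% lower. In mouse 5 of the 10 genes passed, Cdkn1a being higher and Ccnd1, Ccne1, Cdkn1c and Cdkn2c lower, beside 25.6% of all genes, with 12.6% higher and 13.0% lower. These are bulk libraries, in which fewer cells of a type and less RNA per cell cannot be told apart.

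**Figure D1:**
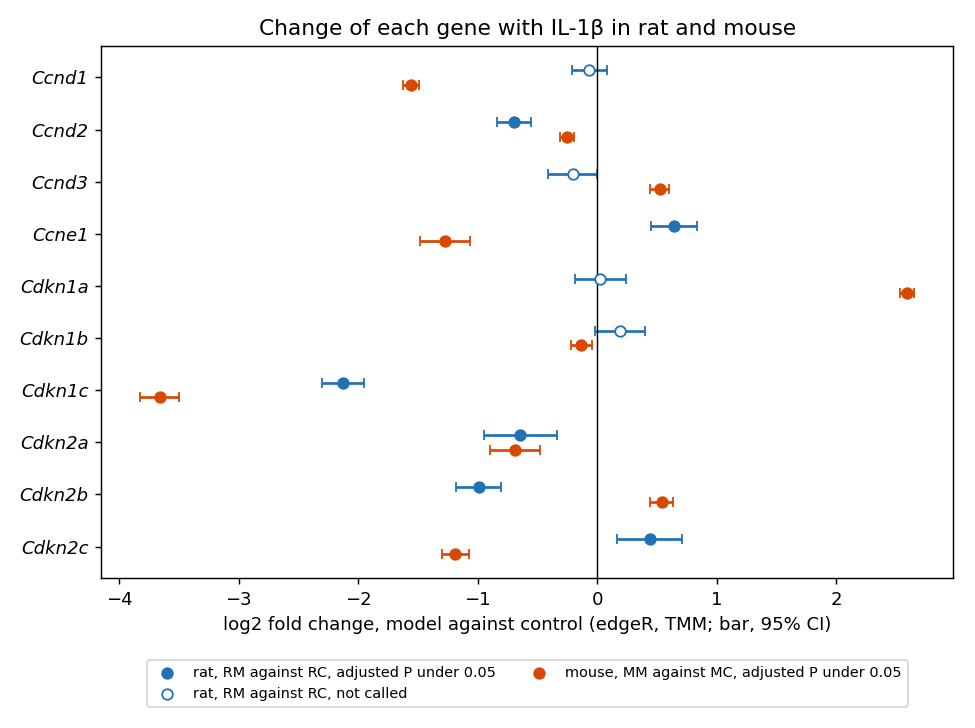
Log2 fold change of each gene, model against control, in rat (blue) and mouse (orange), from edgeR after TMM scaling, with 95% confidence intervals as bars. Filled points had an adjusted P under 0.05 and open points did not. The rat and mouse points of Ccne1, Cdkn2b and Cdkn2c lie on opposite sides of 0, and the mouse point of Cdkn1a lies at 2.59 where the rat point lies at 0.03.

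The D-type cyclins start the phosphorylation of the retinoblastoma protein. Of these 3 genes, 1 fell in rat, and 2 fell and 1 rose in mouse. Ccnd1 encodes the D-type cyclin that answers most directly to growth factors. In rat its FPKM was 204, 218 and 216 in RC1 to RC3 and 218, 191 and 207 in RM1 to RM3. The groups overlapped, and the log2 fold change was -0.07 ± 0.067 (SE, n = 3 per group, adjusted P = 0.479), with a 95% interval from -0.21 to 0.08. In mouse the FPKM of Ccnd1 was 75.3, 73.7 and 73.7 in MC and 20.9, 20.6 and 20.9 in MM. All MM libraries lay far below all MC libraries. The count fell by 1.56 on the log2 scale after TMM scaling (SE 0.0343, adjusted P = 1.57e-46), which is 2.94-fold lower.

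Ccnd2 was the D-type cyclin that fell in both species. Its FPKM in rat was 118, 114 and 112 in RC and 73.3, 71.1 and 70.8 in RM. The groups were well apart, and the gene fell by 0.69 on the log2 scale (SE 0.065, adjusted P = 2.15e-05), or 1.62-fold. The MC libraries had a Ccnd2 FPKM of 68.2, 66.2 and 68.9, and the MM libraries 46.9, 46.6 and 47.0. These groups did not overlap either, and Ccnd2 fell by 0.25 on the log2 scale (SE 0.0279, adjusted P = 2.19e-12). With library size alone its log2 fold change was -0.53.

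Ccnd3, the D-type cyclin best known from lymphoid and muscle cells, had an FPKM of 65.7, 80.3 and 80.9 in RC and 69.1, 62.2 and 67.6 in RM. RC1 lay within the range of RM and the other RC libraries above it. Its change was -0.21 ± 0.0911 on the log2 scale (adjusted P = 0.104), and -0.32 without RC1, with an adjusted P of 0.00151, so the call turned on that library. Ccnd3 in mouse had an FPKM of 13.2, 12.8 and 12.8 in MC and 14.8, 16.1 and 15.1 in MM. Every MM library was above every MC library, and Ccnd3 rose there by 0.52 ± 0.039 on the log2 scale (adjusted P = 6.27e-19), and by 0.24 with library size alone.

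Cyclin E1 is the partner of CDK2 at the entry into S phase, and its gene is a target of the E2F factors. Ccne1 rose in rat and fell in mouse. In rat its FPKM was 12.6, 13.5 and 12.7 in RC and 22.5, 19.6 and 19.1 in RM. Every RM library was above every RC library, and the log2 fold change was 0.64 ± 0.0873 (adjusted P = 0.000278), or 1.56-fold higher. In mouse the FPKM of Ccne1 was 8.05, 7.81 and 6.80 in MC and 2.68, 2.63 and 2.41 in MM. The direction was the opposite, with a log2 fold change of -1.27 ± 0.105 (adjusted P = 3.97e-17), or 2.41-fold lower. The mouse values rest on 325 to 367 reads a library in MC and 112 to 143 in MM.

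**Figure D2:**
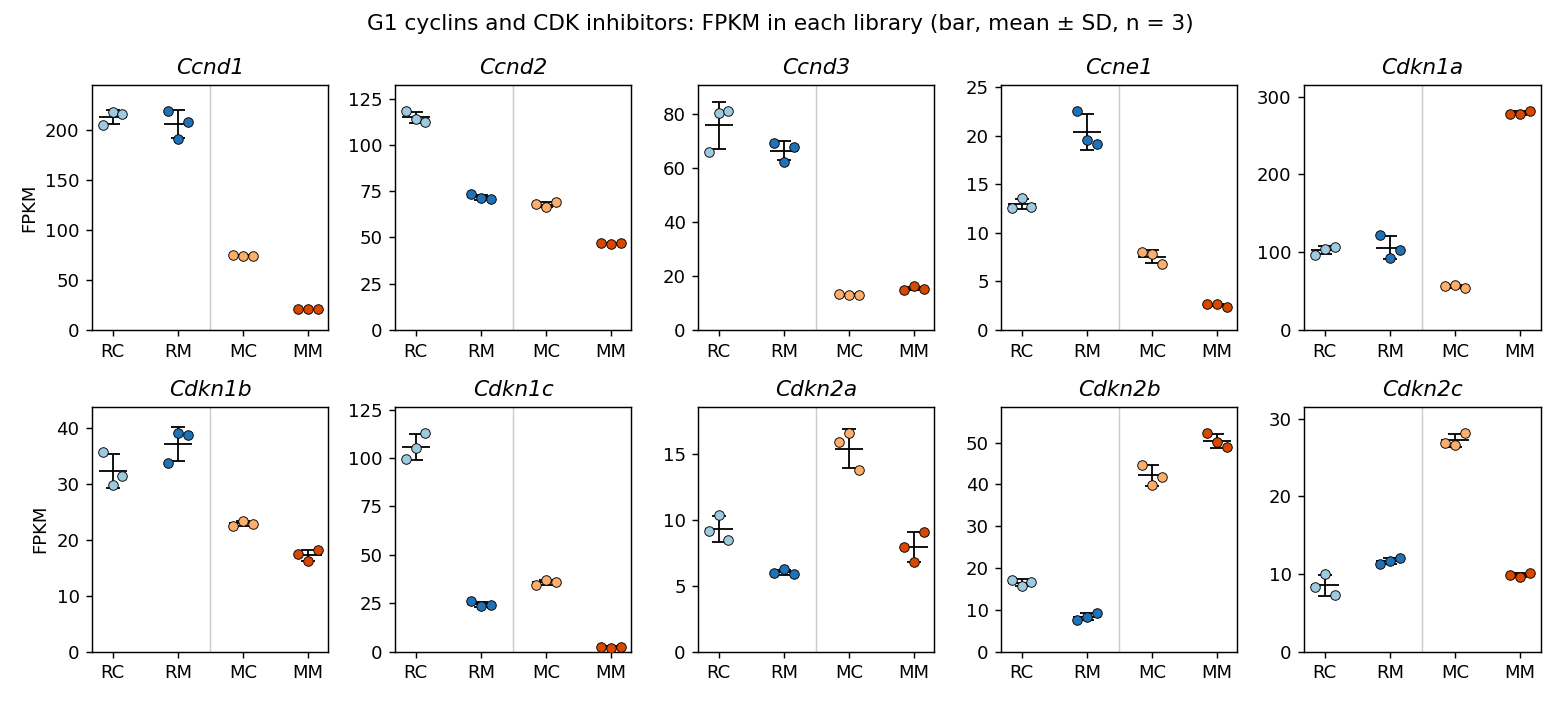
FPKM of each gene in each library, by group, with mean ± SD (n = 3) and a separate axis from 0 for each gene. FPKM is not comparable between the species, since the gene lengths behind it differ. Cdkn1a stands at 278 to 281 FPKM in MM and at 53.96 to 58.0 in MC, whereas its RC and RM libraries overlap.

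The CIP/KIP inhibitors held the largest rise among the 10 genes in mouse and the largest fall in both species. Of the 3, only Cdkn1c fell in rat and neither of the others was called, whereas in mouse Cdkn1a rose and Cdkn1b and Cdkn1c fell. Cdkn1a encodes p21. Its FPKM in rat was 96.5, 105 and 107 in RC and 122, 93.0 and 103 in RM. The groups overlapped, RM2 being the lowest library and RM1 the highest of all 6. The log2 fold change was 0.03 ± 0.0966 (adjusted P = 0.858) with a 95% interval from -0.19 to 0.24, and its sign turned without RC1 (-0.03) and without RM1 (-0.09), not called in either case. In mouse the FPKM of Cdkn1a was 56.3, 58.0 and 53.96 in MC and 278, 278 and 281 in MM. The MM libraries were nearly alike and all far above MC, and the log2 fold change was 2.59 ± 0.0301 (adjusted P = 3.84e-62), or 6.04-fold higher after TMM scaling. The ratio of the mean FPKM was 4.98.

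Cdkn1b encodes p27, which is held in check mainly by its breakdown as a protein. Its FPKM in rat was 35.7, 29.7 and 31.5 in RC and 33.7, 39.1 and 38.8 in RM. RC1 was above RM1, so the groups overlapped, and the log2 fold change was 0.19 ± 0.0938 (adjusted P = 0.146). Without RC1 it was 0.25 with an adjusted P of 0.0179. Mouse Cdkn1b had an FPKM of 22.5, 23.5 and 22.9 in MC and 17.4, 16.2 and 18.1 in MM. The groups did not overlap, and the gene fell by 0.13 on the log2 scale (SE 0.0429, adjusted P = 0.00455), a change larger in size than that of 15.9% of the mouse genes tested. Without MM2 its value was -0.08 (adjusted P = 0.118), and with library size alone -0.41.

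Cdkn1c encodes p57, and it fell in both species. In rat its FPKM was 99.5, 105 and 113 in RC and 26.1, 23.6 and 23.9 in RM. No libraries were close to overlap, and the log2 fold change was -2.13 ± 0.0793 (adjusted P = 2.8e-08), or 4.36-fold lower. That change was larger in size than that of 98.3% of the rat genes tested. In mouse the FPKM of Cdkn1c was 34.7, 37.2 and 35.8 in MC and 2.50, 1.91 and 2.64 in MM. It fell by 3.66 on the log2 scale (SE 0.0824, adjusted P = 5.94e-46), or 12.6-fold, and 76 to 102 reads a library remained in MM, where MC had 1210 to 1309.

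The INK4 inhibitors moved in 3 ways over the species, since Cdkn2a fell in both, Cdkn2b fell in rat and rose in mouse, and Cdkn2c rose in rat and fell in mouse. For Cdkn2a the FPKM in rat was 9.13, 10.4 and 8.44 in RC and 5.96, 6.24 and 5.89 in RM. The groups did not overlap, and the log2 fold change was -0.64 ± 0.138 (adjusted P = 0.00481), or 1.56-fold lower, from 163 to 220 reads a library in RC and 110 to 148 in RM. The mouse libraries, whose Cdkn2a count pools INK4 and ARF, had a Cdkn2a FPKM of 15.8, 16.6 and 13.7 in MC and 7.92, 6.76 and 9.03 in MM. All MM libraries were below all MC libraries, at a log2 fold change of -0.69 ± 0.104 (adjusted P = 3.15e-08), or 1.61-fold lower.

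Cdkn2b encodes p15, an inhibitor known for its response to TGF-β. Its FPKM in rat was 17.1, 15.6 and 16.7 in RC and 7.69, 8.24 and 9.20 in RM. Every RM library was below every RC library, and the log2 fold change was -0.99 ± 0.085 (adjusted P = 1.19e-05), or 1.99-fold lower. Mouse Cdkn2b had an FPKM of 44.8, 39.9 and 41.8 in MC and 52.3, 50.2 and 49.0 in MM. Here every MM library was above every MC library, by a log2 fold change of 0.54 ± 0.0487 (adjusted P = 1.56e-15), or 0.26 with library size alone. Cdkn2a and Cdkn2b are neighbours, on chromosome 4 in mouse with 11645 bases between them, and there the former fell while the latter rose.

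Cdkn2c encodes p18. Its FPKM in rat was 8.33, 10.01 and 7.24 in RC and 11.4, 11.6 and 12.1 in RM. The groups did not overlap, but the RC libraries were spread, and the log2 fold change was 0.44 ± 0.124 (adjusted P = 0.02), or 1.35-fold higher. This call was the least firm of the 6 in rat, since it held in 2 of the 6 fits that each left out 1 library. It stood at 0.34 (adjusted P = 0.0764) without RC3, 0.46 (adjusted P = 0.054) without RM1, 0.44 (adjusted P = 0.0587) without RM2 and 0.42 (adjusted P = 0.0636) without RM3. For Cdkn2c in mouse the FPKM was 26.8, 26.6 and 28.2 in MC and 9.82, 9.67 and 10.1 in MM. All MM libraries were far below MC, with a log2 fold change of -1.19 ± 0.0552 (adjusted P = 7.65e-29), or 2.27-fold lower.

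Ccne1 and Cdkn2c were the genes that rose in rat and fell in mouse, so the start of each rat gene is shown, from RefSeq on GRCr8. For Ccne1 the bases just before the start (chr1:99927910-99928159, minus strand, 72.8% G and C) are printed with a GC box, GGGGCGGGG, in capitals. For Cdkn2c a stretch of 30 bases around the start (chr5:129644866-129644895, minus strand) is printed with an E2F core in capitals.
Ccne1: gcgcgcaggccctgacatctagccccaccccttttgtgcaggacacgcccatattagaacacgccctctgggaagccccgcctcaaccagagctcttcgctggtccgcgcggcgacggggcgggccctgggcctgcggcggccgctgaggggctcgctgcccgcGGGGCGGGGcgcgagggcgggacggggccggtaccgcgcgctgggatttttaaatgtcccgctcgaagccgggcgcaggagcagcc
Cdkn2c: ctcggtcgtagGCGGGAAgttactggtgag
The E2F cores searched were TTCCCGC and its variants TTGGCGC, then TTGCCGC, and last TTCGCGC, each on both strands, as was the GC box. Windows of 300 bases were searched for the 7 of the 10 genes that had an entry, which were all but Ccnd1, Ccnd2 and Cdkn1c. An E2F core was found in 2 of the 7, Cdkn1b and Cdkn2c, beside 9.52% of 33469 such windows over all genes, and a GC box in 2, Ccnd3 and Ccne1, beside 9.73%. A match is a description of these letters and no more.

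The change in mouse differed from the change in rat for 9 of the 10 genes, as tested by the interaction of species and IL-1β over the 10912 genes tested in both species, of which 63.8% passed. This fit took 1 dispersion per gene over both species, although the rat libraries varied more. The SE of a difference can thus lie below that of the rat change alone, as for Ccnd2 (0.0623 against 0.065). With voom and a variance factor per species, 9 of the 10 genes differed too. Cdkn1a had the largest difference, 2.57 ± 0.106 on the log2 scale, mouse minus rat (adjusted P = 1.8e-12). It was followed by Ccne1 at -1.91 ± 0.134 (adjusted P = 1.71e-09), Cdkn2c at -1.62 ± 0.127 (adjusted P = 7.64e-09) and Cdkn1c at -1.53 ± 0.124 (adjusted P = 1.15e-08). Cdkn2b differed by 1.53 ± 0.101 (adjusted P = 7.7e-10), the change in mouse being the higher, and Ccnd1 by -1.49 ± 0.0736 (adjusted P = 1.81e-11). The differences of Ccnd3 and Ccnd2 were smaller, at 0.73 ± 0.102 and 0.44 ± 0.0623, and were 0.43 and 0.15 with library size alone. Cdkn1b differed by -0.32 ± 0.107 (adjusted P = 0.0152), and without MM2 by -0.27 with an adjusted P of 0.0528. Cdkn2a was the gene for which no difference was found, at -0.04 with a 95% interval from -0.42 to 0.33 (adjusted P = 0.849). With library size alone that value was -0.34 (adjusted P = 0.0978).

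The order of the levels changed with IL-1β, more so in mouse. In RC the highest mean FPKM was that of Ccnd1, 213, followed by Ccnd2, Cdkn1c and Cdkn1a at 115, 106 and 103, whose libraries overlapped from each to the next. Ccnd3, Cdkn1b, Cdkn2b and Ccne1 followed, each apart from its neighbours, and Cdkn2a and Cdkn2c were lowest at 9.31 and 8.53 and overlapped. In RM Ccnd1 remained highest at 206, Cdkn1a stood second at 106, Cdkn1c had moved from rank 3 to rank 6 at 24.5, and Cdkn2a was lowest at 6.03. In MC Ccnd1 and Ccnd2 led at 74.3 and 67.7 and Ccne1 was lowest at 7.55. In MM Cdkn1a led at 279, ahead of Cdkn2b at 50.5, Ccnd2 at 46.8 and Ccnd1 at 20.8, and Ccne1 and Cdkn1c were lowest at 2.57 and 2.35 with overlapping libraries.

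Levels are not compared between the species. The gene lengths behind the FPKM differed, for example 1414 bases for Ccnd2 in rat and 9409 in mouse, 1911 and 8775 for Ccnd3, and 5645 and 1390 for Cdkn2b. Shares within a family in the same library do not depend on the scaling between libraries, and these were compared by an exact permutation test of 3 against 3 libraries, two-sided, in which 0.1 is the smallest P possible. The summed FPKM of a family does depend on the scaling between libraries, and the sums given below carry no TMM factor.

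Among the D-type cyclins, Ccnd1 gained share in rat and lost it in mouse. It made up 52.8% ± 0.107 (SD, n = 3) of their summed FPKM in RC and 59.8% ± 0.851 in RM, while Ccnd2 went from 28.5% ± 1.67 to 20.9% ± 0.895 (exact P = 0.1 for both). The share of Ccnd3 in rat was 18.7% ± 1.57 and 19.3% ± 0.214 (exact P = 0.9), a change of 0.565 percentage points that turned to -0.338 without RC1 and to -0.388 with counts in place of FPKM. In mouse Ccnd1 went from 47.9% ± 0.427 to 25.1% ± 0.309, Ccnd2 from 43.7% ± 0.519 to 56.5% ± 0.445 and Ccnd3 from 8.34% ± 0.112 to 18.4% ± 0.754 (exact P = 0.1 for each). By FPKM, Ccnd2 was thus the leading D-type cyclin in every MM library, and Ccnd1 in every library of the other groups. By counts Ccnd2 was above Ccnd1 in MC as well, at 10977, 10493 and 11637 against 6068, 5848 and 6236 in MC1 to MC3. The mouse gene lengths behind the FPKM were 9409 bases for Ccnd2 and 4709 for Ccnd1. The summed FPKM of the family was 403 ± 12.8 in RC and 344 ± 18.6 in RM, and 155 ± 2.01 in MC and 82.9 ± 0.32 in MM.

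The CIP/KIP family came to be made up mostly of Cdkn1a in both species, by different routes. In rat Cdkn1a and Cdkn1c held nearly equal shares in RC, 42.6% ± 1.04 and 43.9% ± 1.03, and 63.0% ± 3.77 and 14.7% ± 0.444 in RM, while the sum of the family went from 241 ± 9.77 to 168 ± 13.0 FPKM. In mouse the share of Cdkn1a went from 48.8% ± 0.841 to 93.4% ± 0.4 and that of Cdkn1c from 31.2% ± 0.603 to 0.785% ± 0.124, while the sum went from 115 ± 3.32 to 299 ± 3.09 FPKM. The exact P was 0.1 for each of these. With counts in place of FPKM the change of Cdkn1c in mouse was -19.0 percentage points and not -30.4. The mean FPKM of Cdkn1a itself was 103 in RC and 106 in RM.

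Among the INK4 genes, the gaining member differed. In rat Cdkn2c went from 24.8% ± 2.8 to 44.8% ± 0.527 of the summed FPKM and Cdkn2b from 48.2% ± 4.26 to 32.1% ± 1.61. In mouse Cdkn2b went from 49.7% ± 1.59 to 74.0% ± 1.83 and Cdkn2c from 32.1% ± 1.48 to 14.5% ± 0.417. Cdkn2a held 27.1% ± 1.49 in RC against 23.1% ± 1.29 in RM, and 18.2% ± 1.77 in MC against 11.6% ± 1.57 in MM. The exact P was 0.1 for each share by FPKM. With counts in place of FPKM the change of Cdkn2a in rat turned from -3.95 to 0.468 percentage points (exact P = 0.6), and that of Cdkn2a in mouse was -3.32 and not -6.59. The summed FPKM was 34.3 ± 1.82 in RC, 26.1 ± 1.09 in RM, 84.8 ± 2.36 in MC and 68.3 ± 1.74 in MM. These sums carry no TMM factor. In mouse the median log2 fold change over all genes was -0.3 with library size alone and -0.02 after TMM scaling. Whether the INK4 sum was lower in MM after TMM scaling was not tested.

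**Figure D3:**
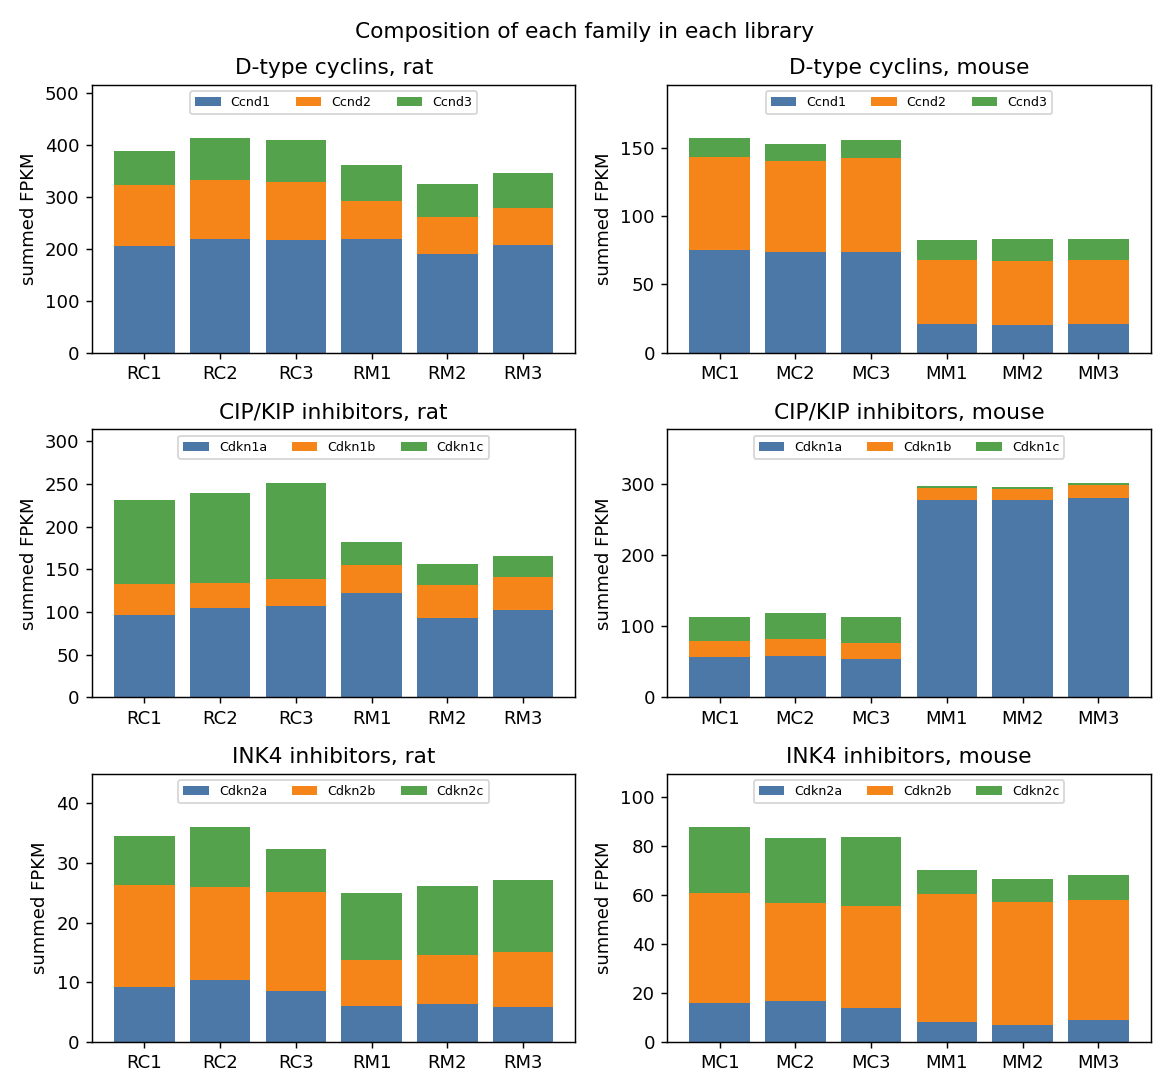
Summed FPKM of the D-type cyclins, the CIP/KIP inhibitors and the INK4 inhibitors in each library, stacked by gene, with axes from 0 and the rat on the left and the mouse on the right. The CIP/KIP bars of MM, 299 FPKM on average, consist almost wholly of Cdkn1a, and the Cdkn1c part shrinks in RM as in MM.

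The ratio of Cdkn1a to Ccnd1 sets an inhibitor against the cyclin that led by FPKM in RC, RM and MC. It was chosen after the data were seen, from a gene that rose and a gene that fell in mouse. Its change in mouse follows from theirs, and its exact P adds no support to them. This ratio of FPKM was 0.482 ± 0.0112 in RC and 0.513 ± 0.0385 in RM, with overlapping libraries (exact P = 0.2). In mouse it was 0.755 ± 0.0285 in MC and 13.4 ± 0.118 in MM (exact P = 0.1, the smallest possible), a 17.8-fold higher ratio.

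The genes that work around the G1 cyclins were taken as lists by role. The kinases and partners (Cdk2, Cdk4, Cdk6, Ccne2, Ccna2, Cdk7, Ccnh, Mnat1, Cdc25a and Cdkn2d) held 5 that rose and 0 that fell among 9 tested in rat, and 1 that rose and 7 that fell among 10 in mouse. Over all genes 18.3% were called higher and 16.8% lower in rat, and 37.4% higher and 37.7% lower in mouse. With library size alone, 1 of the kinases and partners was higher and 8 were lower in mouse, beside 25% and 54.7% of all mouse genes. Cdk4, the main kinase of the D-type cyclins, was at -0.01 ± 0.0683 on the log2 scale in rat (adjusted P = 0.966) and fell by 0.84 in mouse (SE 0.0332, adjusted P = 1.61e-32). Cdk6 rose in both, by 0.36 ± 0.0871 in rat (adjusted P = 0.0095) and by 1.03 ± 0.0714 in mouse (adjusted P = 2.18e-20), from a mean FPKM of 1.44 in MC to 2.43 in MM.

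The kinase and cyclins of S phase entry rose in rat. Cdk2 rose by 0.64 ± 0.0754 on the log2 scale (adjusted P = 0.000106), Ccne2 by 1.33 ± 0.199 (adjusted P = 0.000511) and Ccna2, cyclin A2 of S and G2 phase, by 0.76 ± 0.0839 (adjusted P = 6.61e-05). In mouse Cdk2 fell by 0.26 (SE 0.0677, adjusted P = 0.000418) and Ccna2 fell by 2.59 (SE 0.0702, adjusted P = 1.97e-41), and Ccne2 had a log2 fold change of 0.08 ± 0.108 (adjusted P = 0.486). Cdkn2d, the other INK4 gene, was tested in mouse alone, at 0 ± 0.0823 (adjusted P = 0.999), and its value was -0.28 with library size alone.

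The retinoblastoma protein and its relatives p107 (Rbl1) and p130 (Rbl2) bind E2F factors. In rat, Rb1 rose by 0.58 ± 0.113 (adjusted P = 0.00288) and Rbl1 by 0.85 ± 0.128 (adjusted P = 0.000537), and Rbl2 was at 0.06 ± 0.0841 (adjusted P = 0.649). In mouse, Rb1 rose by 1.37 ± 0.0768 (adjusted P = 8.43e-25), while Rbl1 fell by 1.62 (SE 0.0907, adjusted P = 8.48e-25) and Rbl2 fell by 0.26 (SE 0.0624, adjusted P = 0.00018). Thus Rb1 rose in both species and Rbl1 moved in opposite directions, with a difference of -2.46 ± 0.176 (adjusted P = 2.14e-09).

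The E2F and DP factors held 5 that rose and 0 that fell among 9 tested in rat, and 5 that rose and 5 that fell among 10 in mouse, where 1 was higher and 5 were lower with library size alone. Beside these stand 18.3% higher and 16.8% lower over all rat genes, 37.4% and 37.7% over all mouse genes, and 25% and 54.7% in mouse with library size alone, so the mouse count of factors lower was near the share over all genes. E2f8 and E2f7, repressors that act late in the cycle, rose in rat by 1.08 ± 0.0855 (adjusted P = 6.84e-06) and by 0.89 ± 0.132 (adjusted P = 0.000478), and Tfdp1, a DP partner, by 0.46 ± 0.062 (adjusted P = 0.000251). In mouse E2f8 fell by 2.05 (SE 0.158, adjusted P = 2.67e-18), E2f7 fell by 1.56 (SE 0.125, adjusted P = 1.32e-17) and Tfdp2 fell by 0.65 (SE 0.065, adjusted P = 8.15e-14). Of the list of p27 and cyclin turnover, Skp2 and Cks1b, which mark p27 for breakdown, rose in rat by 0.33 ± 0.0894 (adjusted P = 0.0166) and 0.37 ± 0.0803 (adjusted P = 0.00489). In mouse Skp2 fell by 1.10 (SE 0.11, adjusted P = 8.02e-14) and Cks1b fell by 1.53 (SE 0.0832, adjusted P = 1.91e-25). Fbxw7, which marks cyclin E for breakdown, had a mouse log2 fold change of 0.25 ± 0.0832 (adjusted P = 0.00559) after TMM scaling and -0.03 with library size alone. Ambra1, which marks D-type cyclins for breakdown, was at -0.11 ± 0.0766 in rat (adjusted P = 0.309).

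Of 10 upstream regulators, 4 of 9 tested rose and 0 fell in rat, and 5 rose and 4 fell in mouse, where 3 were higher and 6 lower with library size alone. The mouse counts were near the shares over all genes, 37.4% higher and 37.7% lower, or 25% and 54.7% with library size alone, and in rat 18.3% of all genes were higher. Mdm2, a p53 target that marks p53 for breakdown, rose by 0.53 ± 0.105 in rat (adjusted P = 0.00298) and by 2.92 ± 0.0364 in mouse (adjusted P = 2.37e-60). Foxo3, a factor known to raise Cdkn1b, rose by 0.39 ± 0.0775 in rat (adjusted P = 0.00295) and by 1.55 ± 0.0366 in mouse (adjusted P = 7.62e-45). Myc rose by 0.34 ± 0.0752 in rat (adjusted P = 0.00543) and by 1.44 ± 0.0541 in mouse (adjusted P = 9.54e-34). Mdm2, Foxo3 and Myc thus rose in both species, and each rose further in mouse, by 2.39 ± 0.121, 1.16 ± 0.0795 and 1.10 ± 0.0897 (adjusted P = 2.54e-11, 1.32e-09 and 1.23e-08 for the difference). Ezh2, which silences the Cdkn2a locus in many cells, rose by 0.76 ± 0.105 in rat (adjusted P = 0.000301) and fell by 1.35 in mouse (SE 0.0918, adjusted P = 7.83e-21).

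Genes that act after the G1 gate moved in opposite directions in the species. Of 19 genes of S phase, 18 rose and 0 fell in rat, with a median log2 fold change of 0.88, and 1 rose and 16 fell in mouse, with a median of -1.72. Over all genes 18.3% were higher in rat and 37.7% lower in mouse, or 54.7% lower with library size alone. The smallest adjusted P values in rat were those of Cdc6, Rrm2 and Uhrf1, at 1.38 ± 0.0807, 0.98 ± 0.0659 and 1.00 ± 0.0706 (adjusted P = 7.44e-07, 1.96e-06 and 2.98e-06). In mouse they were those of Mcm6, Rrm1 and Rrm2, at -2.55 ± 0.0654, -1.75 ± 0.0476 and -1.41 ± 0.0442 (adjusted P = 8.15e-43, 2.57e-41 and 5.13e-38). The helicase genes Mcm2 and Mcm5 were at 0.56 and 0.94 in rat and at -1.72 and -2.24 in mouse, each past the test. Pcna, the clamp of the DNA polymerase, rose in rat by 0.88 ± 0.0856 (adjusted P = 2.8e-05), and its mouse value of 0.21 ± 0.0409 (adjusted P = 5.09e-06) turned to -0.07 with library size alone, where 0 of the 19 were higher and 17 lower. Of 10 genes of G2 phase and mitosis, 9 of 9 tested rose in rat and 10 of 10 fell in mouse. In rat the mitotic kinase genes Aurka and Cdk1 rose by 0.80 ± 0.0694 and 0.75 ± 0.0715 and Ccnb1, cyclin B1, by 0.76 ± 0.069 (adjusted P = 1.24e-05, 2.47e-05 and 1.74e-05). In mouse Mki67, Top2a and Ccnb2 were at -2.32 ± 0.0452, -2.26 ± 0.0458 and -3.16 ± 0.0895 (adjusted P = 1.79e-49, 1.47e-48 and 1.97e-40). The change in mouse was lower than that in rat for all 19 genes of S phase and all 9 of G2 phase and mitosis tested in both species, past the test of the difference. Over all genes tested in both species, 3528 of 10912 had a lower change in mouse past the same test.

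**Figure D4:**
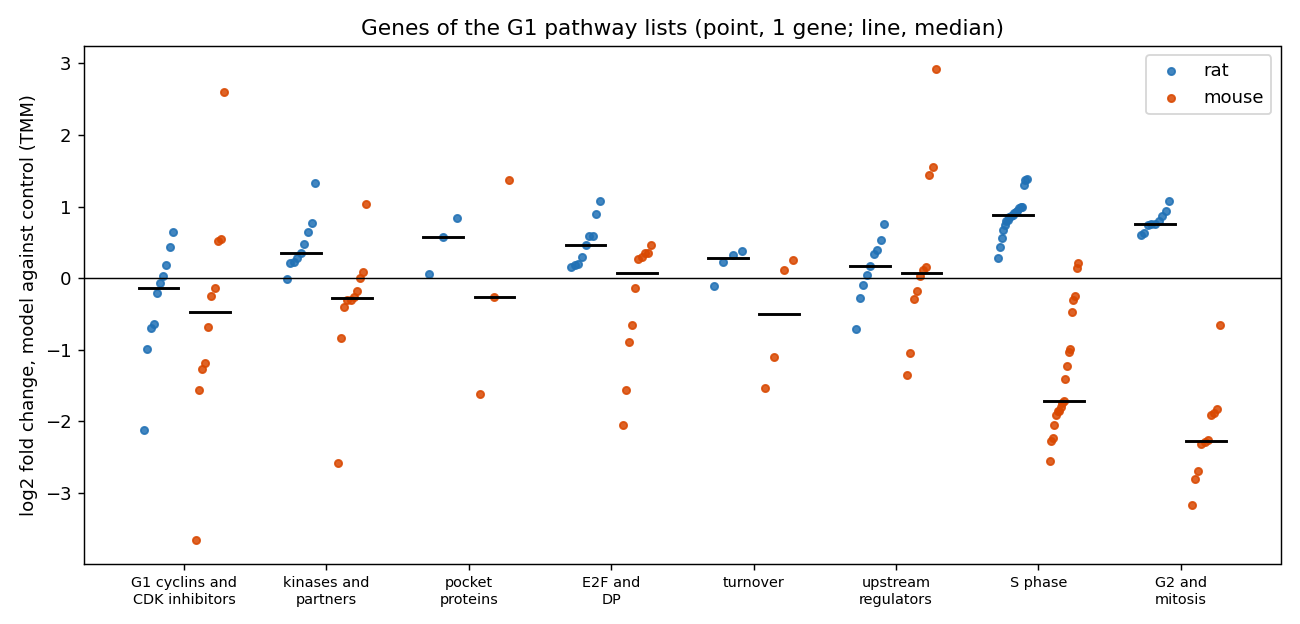
Log2 fold change, model against control after TMM scaling, of each tested gene of the 10 G1 cyclins and CDK inhibitors and of the lists of genes around them, in rat (blue) and mouse (orange), with the median of each list as a line. The medians of the S phase list are 0.88 in rat and -1.72 in mouse and those of the G2 and mitosis list 0.76 and -2.28, whereas the 10 genes spread on both sides of 0 in both species.

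Other markers moved with IL-1β as well. The summed FPKM of 10 chondrocyte markers went from between 5194 and 5852 in RC to between 2080 and 2119 in RM, and from between 2275 and 2323 in MC to between 219 and 232 in MM, and 10 of 10 fell in each species. Of 8 fibroblast markers, the sum was 5572 to 6058 in RC and 3732 to 3938 in RM and was 2403 to 2440 in MC and 1545 to 1559 in MM, with 1 higher and 4 lower in rat and 3 higher and 4 lower in mouse, where 1 was higher and 5 were lower with library size alone. The sum of the macrophage and leukocyte markers, mostly Cd14 and Cd68, was 19.7 to 23.5 in RC, 31.8 to 35.0 in RM, 7.38 to 7.75 in MC and 34.4 to 37.1 in MM, and 2 of 5 tested were higher and 2 lower in rat and 4 of 4 higher in mouse, or 3 of 4 with library size alone, beside 18.3% of all rat and 37.4% of all mouse genes higher. Their defining gene Ptprc had a mean FPKM of at most 0.056 in any group, and Itgam had a count of 0 in every mouse library. The endothelial markers summed to at most 0.793 in any library. The muscle markers summed to 6.56 to 7.48 in RC, 3.98 to 4.58 in RM, 5.69 to 6.83 in MC and 0.421 to 0.888 in MM, with 1 of 2 tested lower in rat and 3 of 3 lower in mouse. Beside the counts of markers lower, 16.8% of all rat genes and 37.7% of all mouse genes were called lower, or 54.7% in mouse with library size alone. The part of these marker shifts in the values of the 10 genes was not tested.

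Positions are given for mouse, whose deposited gene lengths equal the merged exon lengths of GENCODE M21 on GRCm38. Ccnd1 (ENSMUSG00000070348) lies at chr7:144929931-144939925, Ccnd2 (ENSMUSG00000000184) at chr6:127125162-127152193, Ccnd3 (ENSMUSG00000034165) at chr17:47505051-47599691 and Ccne1 (ENSMUSG00000002068) at chr7:38097984-38107534. Cdkn1a (ENSMUSG00000023067) lies at chr17:29090976-29100727, Cdkn1b (ENSMUSG00000003031) at chr6:134920401-134925513 and Cdkn1c (ENSMUSG00000037664) at chr7:143458339-143461050. Cdkn2a (ENSMUSG00000044303), Cdkn2b (ENSMUSG00000073802) and Cdkn2c (ENSMUSG00000028551) all lie on the same chromosome, at chr4:89274471-89294653, chr4:89306299-89311039 and chr4:109660876-109667189. It is not given in the sources used here if strand entered the counting. Without strand, reads where exons of opposite strands overlap cannot be told apart, which touches 1100 exon bases of Ccnd1 shared with LTO1, 361 of Ccnd3 shared with Bysl, 273 of Cdkn1a shared with AC167363.2, 372 and 368 of Ccnd2 shared with antisense genes and 625 of Cdkn1c shared with Gm44732. Over all mouse libraries together LTO1 had 2410 counts, Bysl 3076, AC167363.2 421 and Gm44732 0, whereas Ccnd1 had at least 1721 in each library, Ccnd3 at least 1887 and Cdkn1a at least 3422.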

How the data were processed

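The labels state Trizol extraction and the NEBNext Ultra kit, and the submitters' processing notes name HISAT2 and HTSeq 0.11.2 with the builds Rnor_6.0 and GRCm38. The authors deposited a rat and a mouse table, each with raw counts of reads per Ensembl gene and library beside the FPKM values that the authors computed from them. Count divided by gene length and column total gave the deposited FPKM within 0.1% for all values checked.

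Groups came from the treatment labels. The deposited counts were tested with edgeR 4.0.16 in R 4.3.3 (filterByExpr, TMM, glmQLFit, glmQLFTest), separately by species, with Benjamini-Hochberg adjustment over all genes tested. The difference between species was the interaction in 1 fit of genes shared by symbol, with TMM set within species. The study's fold change cutoff was read as a log2 value. Alternatives were library size alone, RLE factors, DESeq2 1.42.0, no filter, limma 3.58.1 on log2(FPKM + 1) or log2(FPKM + 0.1), voom with a variance factor per species, a replicate block and leaving out each library. Scripts were tested on simulated data. Replicates differed by more than sampling noise in every pair.

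The 10 genes and the lists around them were chosen with earlier results of these data known. Named beside the 10 genes are the 3 genes of each list with the smallest adjusted P in a species, the direct partners and a few S phase genes fixed by name. Shares of the CIP/KIP and INK4 genes and the ratio of Cdkn1a to Ccnd1 were added after the data were seen. E2f1, Trp53, Ccnb2 and Cdkn2d had no row of that symbol in the rat table used here.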

Additional observations from a re-analysis of the deposited data

Results flagged for a closer look

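A difference between the species in the response to IL-1β, by the interaction test with an adjusted P under 0.05 over all genes tested in both, singled out 9 of the 10 genes. The values are the log2 fold change in mouse minus that in rat. They were 2.57 for Cdkn1a, 1.53 for Cdkn2b, 0.73 for Ccnd3 and 0.44 for Ccnd2, where the mouse change was the higher. They were -1.91 for Ccne1, -1.62 for Cdkn2c, -1.53 for Cdkn1c, -1.49 for Ccnd1 and -0.32 for Cdkn1b, where it was the lower. Since 63.8% of all genes passed the same test, the count does not set the 10 genes apart. Species, culture and annotation cannot be told apart in this design.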

How the results depend on the processing

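With 3 libraries a group, the smallest exact P is 0.1, and Cdkn2a in rat and Ccne1, Cdkn1c and Cdkn2a in mouse rest on the fewest reads. The count of genes called in rat was 6 under the other scalings, DESeq2, limma and no filter, and was 2 by the criteria for DEGs and 1 with an absolute log2 fold change of at least 1. In mouse these were 10, 5 and 5. Leaving out 1 library gave 5 to 8 genes in rat, 9 to 10 in mouse and 8 to 9 for the difference. The sign turned for the rat value of Cdkn1a without RC1 (-0.032) and without RM1 (-0.085), over a range of -0.085 to 0.11, and for the difference of Cdkn2a, from -0.136 to 0.065, at 0.021 without RC3, 0.012 without MC2 and 0.065 without MM2. None of these was called. With counts in place of FPKM, the change in share was 4.84 percentage points for Ccnd1, -4.45 for Ccnd2 and -0.388 for Ccnd3 (0.565 by FPKM) in rat, -17.2 for Ccnd1 and 7.59 for Ccnd2 in mouse, and 0.468 for Cdkn2a (-3.95 by FPKM) and 13.4 for Cdkn2c (20.1 by FPKM) in rat. In mouse it was -19.0 for Cdkn1c (-30.4), 39.4 for Cdkn1a (44.6), -20.4 for Cdkn1b (-14.2), -3.32 for Cdkn2a (-6.59), 27.1 for Cdkn2b (24.3) and -23.8 for Cdkn2c (-17.7), because gene length then no longer enters. The Ccnd3 share in rat ranged from -0.338, without RC1, to 1.08. Same-numbered libraries had deviations that correlated by 0.006 to 0.028 in mouse and by 0.028, -0.204 and 0.111 in rat. These small values cannot settle if the numbers mark shared animals or cultures. Each MC library correlated best with the MM library of its own number, and in rat only RC3 did so with RM3. Some partner must correlate best even where libraries are not paired, so at values this small the match of numbers does not tell if they were paired. With a replicate block the counts of called genes were 6 in rat, 10 in mouse and 9 for the difference, and calls over all genes were 4534 in rat and 11047 in mouse, against 4667 and 11085 without it.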
